A study of Mus musculus with 8 samples.

Results

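Crybg1, Crybg2, Crybg3, Crym and Cryl1 are 5 mouse genes that carry crystallin names but stand outside the set of structural lens crystallins, and the open chromatin around them was read from 4 lists of ATAC-seq peaks of the mouse lens. The genes were chosen by name, 5 of the 26180 genes with curated RefSeq transcripts, and every peak that overlapped a gene body or the 50 kb on either side of it was taken. Peak rank and gene body coverage were part of that choice and are given as descriptions. The study asked how chromatin opens as the lens separates into epithelium and fibers. It used CD1 mice, an outbred strain, and separated the epithelium from the fibers by micro-dissection at E14.5 (embryonic) and P0.5 (newborn), with 2 libraries in each of the 4 groups and no genetic change or treatment named for any of them. The paper describes peaks called for each sample and merged afterwards. The lists used here are labelled as pooled for each group of 2 libraries, so each group is 1 list. They are here called embryonic epithelium and embryonic fibers (E14.5) and newborn epithelium and newborn fibers (P0.5). Values given 4 at a time follow this order. The windows held 50 of 100003 peaks in embryonic epithelium, 76 of 123743 in embryonic fibers, 32 of 58592 in newborn epithelium and 34 of 62995 in newborn fibers. With 1 list a group, no value below has a spread between replicates, and no difference between lists could be tested. The lists hold no reads, and the depth behind a single peak is not given as a count. In bulk tissue, fewer cells with an open site and a less open site in each cell cannot be told apart.

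The vertebrate lens is filled with crystallins, proteins that are kept at high concentration so that the tissue stays clear and bends light. The alpha, beta and gamma crystallins make up the structural set of the mouse, and their genes are used mostly in the elongating fiber cells. Crybg1, Crybg2 and Crybg3 encode large proteins that contain the beta/gamma-crystallin fold without being abundant lens proteins. Crybg1, known earlier as absent in melanoma 1, encodes a protein that binds actin, and Crybg3 encodes a very large protein that anchors protein kinase A. Crym (mu-crystallin) and Cryl1 (lambda-crystallin) belong to another kind. They encode enzymes that serve as structural crystallins in the lenses of certain animals, some marsupials for mu-crystallin and rabbits and hares for lambda-crystallin. In most tissues mu-crystallin is known as a ketimine reductase that binds thyroid hormone, and lambda-crystallin is an L-gulonate 3-dehydrogenase of the uronate pathway.

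ATAC-seq marks open DNA through the transposase Tn5, which inserts sequencing adaptors where chromatin is accessible. Each peak carries a fold enrichment at its summit over a background estimated by the peak caller. Peaks were ranked by this value within their own list, and the rank is given as a percent of the list, so that a small percent stands near the top. Many peaks share a value. In newborn fibers 102 distinct fold enrichments covered all peaks, against 506 in embryonic fibers, and the ranks at P0.5 are correspondingly coarse. The q value was below 0.001 for 48.9% of newborn fiber peaks and for 80.5% to 87.9% of the peaks in the other lists, and over the 5 loci for 17 of 34 peaks in newborn fibers against 47 of 50, 63 of 76 and 30 of 32 in embryonic epithelium, embryonic fibers and newborn epithelium. The tissue labels were checked against marker genes. All 4 epithelial markers, among them Foxe3, and all 5 fiber markers, among them Mip, had a peak within 2 kb of a start site in every list. The best peak of Mip stood at 2.12% of the list in embryonic fibers against 16% in embryonic epithelium, and at 14.0% in newborn fibers against 36.4% in newborn epithelium. Of the 5 fiber markers 4 stood nearer the top in fibers at both stages, and Lctl did so in the embryonic but not in the newborn lists, at 91.3% in fibers against 66.3% in epithelium. Of the 4 epithelial markers, Foxe3 and Cdh1 stood nearer the top in epithelium at both stages, and Pax6 and Pdgfra stood nearer the top in fibers at both stages. Pax6 was at 0.479% in embryonic fibers against 3.73% in embryonic epithelium. The ranks of the epithelial markers thus did not separate the tissues. Of 3 vessel markers 2, 3, 2 and 2 had such a peak in embryonic epithelium, embryonic fibers, newborn epithelium and newborn fibers. Of 4 markers of pigment cells and retina 3, 3, 2 and 2 did, and of 3 blood and immune markers 2, 1, 0 and 0. The cornea marker Krt12 had none. The part of other cell types in the results was not tested.

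The DNA at the start sites is shown first, because the 5 genes differed in whether an open region lay there. The sequences are from RefSeq (GRCm38.p6, the assembly called mm10), read 5′ to 3′ on the strand of the gene, and cover the 250 bases that end just before the start site. CpG dinucleotides are in capitals. They belong to Cryl1 (chr14:57398484-57398733, minus strand), Crybg3 (chr16:59601048-59601297, minus strand), the most upstream start of Crybg1 (chr10:44148829-44149078, minus strand), the most downstream start of Crybg1 (chr10:44004847-44005096, minus strand) and Crybg2 (chr4:134068202-134068451, plus strand).
Cryl1: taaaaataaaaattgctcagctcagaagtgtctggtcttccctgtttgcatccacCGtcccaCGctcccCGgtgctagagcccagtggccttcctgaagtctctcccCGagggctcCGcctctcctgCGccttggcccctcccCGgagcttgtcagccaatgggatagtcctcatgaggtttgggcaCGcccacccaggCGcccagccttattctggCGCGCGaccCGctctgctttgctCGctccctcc
Crybg3: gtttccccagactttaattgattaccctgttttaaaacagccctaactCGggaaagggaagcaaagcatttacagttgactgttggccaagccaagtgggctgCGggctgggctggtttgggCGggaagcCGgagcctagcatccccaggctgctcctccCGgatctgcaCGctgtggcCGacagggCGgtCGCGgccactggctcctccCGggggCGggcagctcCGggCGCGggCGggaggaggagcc
Crybg1, most upstream start: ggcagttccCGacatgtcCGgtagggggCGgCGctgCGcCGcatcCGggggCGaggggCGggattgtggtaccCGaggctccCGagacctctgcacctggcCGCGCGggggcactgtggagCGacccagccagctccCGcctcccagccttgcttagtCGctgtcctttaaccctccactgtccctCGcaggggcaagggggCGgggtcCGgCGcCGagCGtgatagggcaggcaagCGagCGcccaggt
Crybg1, most downstream start: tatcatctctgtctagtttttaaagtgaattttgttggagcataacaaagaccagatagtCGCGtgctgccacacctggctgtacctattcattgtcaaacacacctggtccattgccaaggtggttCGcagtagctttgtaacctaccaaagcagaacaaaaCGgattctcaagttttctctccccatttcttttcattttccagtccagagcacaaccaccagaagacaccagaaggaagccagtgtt
Crybg2: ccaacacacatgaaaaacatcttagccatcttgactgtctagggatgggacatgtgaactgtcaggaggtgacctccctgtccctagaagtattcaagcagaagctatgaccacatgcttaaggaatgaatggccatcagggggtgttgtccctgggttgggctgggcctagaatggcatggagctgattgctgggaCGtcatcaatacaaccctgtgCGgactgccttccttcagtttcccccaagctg
The first 3 sequences hold 14, 16 and 25 CpGs, and each was overlapped, in part or in full, by a peak in all 4 lists. The last 2 hold 4 and 2 CpGs, and no peak of any list touched the 300 bp from 250 bp before to 50 bp after those starts.

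Measured over these 300 bp, the GC content was 62.3% for Cryl1, 67.7% for Crybg3 and 71.7% for the most upstream start of Crybg1, against 44.7% for the most downstream start of Crybg1 and 52% for Crybg2. The number of CpGs relative to the number that the base composition gives was 0.649, 0.767 and 0.729 for the first 3 and 0.337 and 0.0986 for the last 2. A remaining start of Crybg1, which lies between the others at position 44022275, had a ratio of 0.233 and also no peak. The start of Crym was not matched to a promoter sequence and is left out here. The 6 start sites of the other 4 genes fell on either side of a ratio of 0.6 in the same way as they fell into those with and without an overlapping peak. This division is common in these lists. Of 11765 start sites with a ratio of at least 0.6, 83% had a peak in all 4 lists and 5.13% in none, and of 21086 with a lower ratio 9.24% had a peak in all 4 and 72.3% in none.

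Within 2 kb of a curated start site, 4 of the 5 genes had a peak in each list, against 70.3% of 21000 protein-coding genes in embryonic epithelium, 71.2% in embryonic fibers, 67.0% in newborn epithelium and 64.6% in newborn fibers. The same 4 genes, Crybg1, Crybg3, Crym and Cryl1, had one in all 4 lists, as did 60.6% of protein-coding genes. Crybg2 had none in any list, but when predicted transcripts were included it gained one in both fiber lists, and the count there was 5 of 5. For Crym, the count in embryonic fibers rests on a peak at the start of the neighbouring gene Abca14, as described below.

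**Figure D1:**
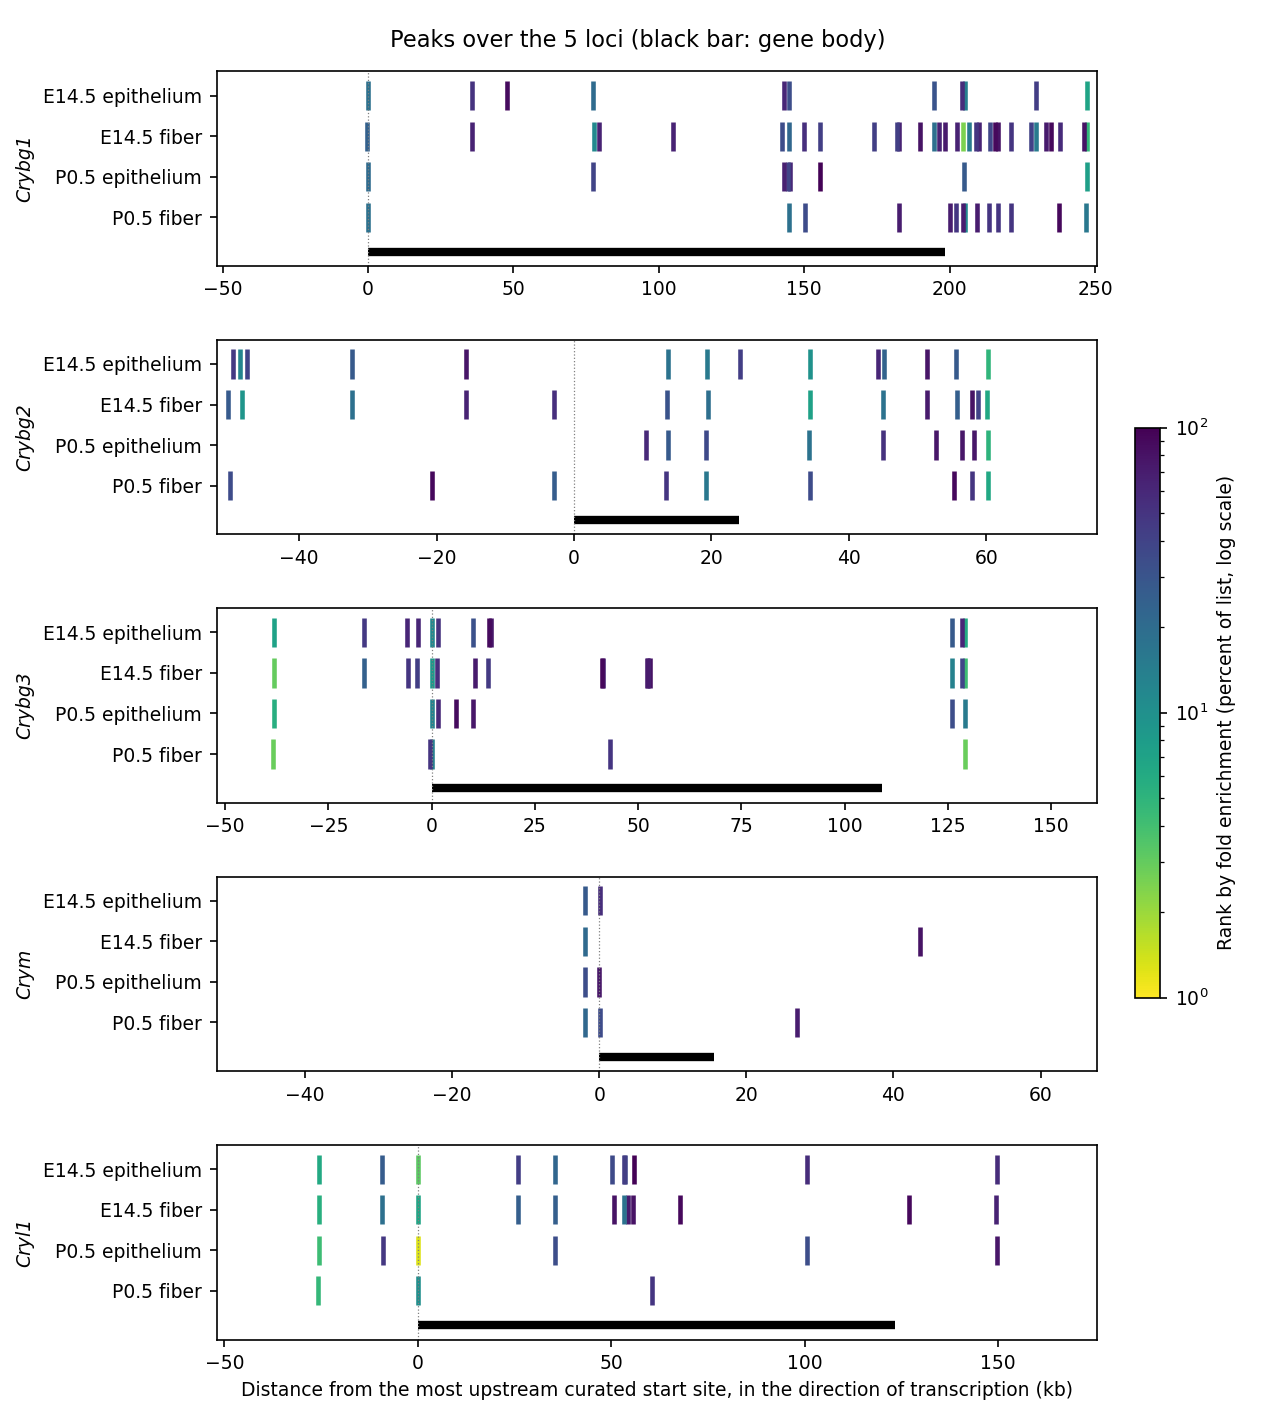
Peaks of the 4 pooled lists over the 5 genes and 50 kb on either side, by distance in kb from the most upstream curated start site in the direction of transcription. Each tick is 1 peak at the midpoint between its ends, the colour gives its rank within its own list in percent on a log scale (yellow near the top), and the black bar is the gene body. The tick at the Cryl1 start stands at 1.27% to 10.3% of the 4 lists, Crybg2 has no tick at its start, and the embryonic fiber row of Crybg1 fills beyond the end of the gene.

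Cryl1 had the highest ranked start-site peak of the 5 genes in every list. The gene spans chr14:57275034-57398483 on the minus strand, 123 kb, with 1 curated start site. Its peak stood at 3.17% of the embryonic epithelium list, 6.65% of embryonic fibers, 1.27% of newborn epithelium and 10.3% of newborn fibers. Both epithelial lists thus placed it nearer the top than the fiber list of the same stage, and the newborn epithelium list placed it nearest of all. The fold enrichments, which depend on the depth of each pool and are not compared between lists, were 56.7, 34.7, 36.9 and 8.34. The peak was 581, 519, 500 and 394 bp wide in the same order, with summits at positions -60, -88, -17 and -41 relative to the start site, inside the sequence printed above.

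The rank of Cryl1 was 2.1 times as far from the top in fibers as in epithelium at E14.5 and 8.11 times as far at P0.5. It was the only one of the 5 genes whose best peak stood at least 2 times nearer the top in epithelium at both stages. This rule was chosen after the ranks were seen, so it is a description and no test of Cryl1. Among 13883 protein-coding genes with a peak in every list, 1.70% met this rule, and 5.29% met its mirror image, with none of the 5 genes among them. Of the 13 structural crystallin genes with a peak in every list, 9 stood at least 2 times nearer the top in fibers at both stages and 0 in epithelium. The order of the lists for Cryl1 stayed the same with a q value below 0.001, where the ranks were 3.61%, 8.26%, 1.47% and 21.1%. With equal numbers of peaks in every list they were 5.41%, 14.1%, 1.27% and 11.1%, so that embryonic fibers then stood last. Among all protein-coding genes, 16.8%, 39.0%, 3.85% and 31.0% had a better best peak than Cryl1 in embryonic epithelium, embryonic fibers, newborn epithelium and newborn fibers. The protein-coding genes with the ranks most like those of Cryl1 over the 4 lists were Depdc1a (3.64%, 5.51%, 1.27% and 10.3%) and Tars (3.44%, 5.89%, 1.49% and 8.49%), at distances of 0.101 and 0.126 in log10 rank percent.

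Inside the gene body Cryl1 had far lower ranked peaks, and none of its intronic or exonic regions was called in all 4 lists. The best rank in any list was that of embryonic fibers at an intronic region, chr14:57344760-57345485, with 1 peak of 726 bp at 17.5%. There embryonic epithelium had 2 narrower peaks at 38.1% and 43.5%, both below its coding exon peak given next. Neither P0.5 list had a peak in this intronic region. A coding exon 35.5 kb into the gene carried a narrow peak in 3 lists, at 22.5% in embryonic epithelium, 25.2% in embryonic fibers and 33.9% in newborn epithelium, with widths of 135, 130 and 103 bp. A region 9.08 kb upstream of the start was called in the same 3 lists, at 26.4%, 18.5% and 47.1%. newborn fibers lacked both and had 3 peaks over the whole Cryl1 locus, against 11, 12 and 6 in the other lists. The nearest protein-coding neighbour, Ift88, needed for the assembly of cilia, starts 25.6 kb beyond the start of Cryl1 and had a start-site peak in every list, at 6.19%, 5.51%, 4.22% and 4.64%.

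Crybg3 (chr16:59492088-59601047, minus strand) also had a start-site peak in every list, with ranks in a narrower range than those of Cryl1. It stood at 11.7% in embryonic epithelium, 8.52% in embryonic fibers, 12.8% in newborn epithelium and 14.0% in newborn fibers. Of the 5 genes it had the widest peak over its own start, 994, 1029, 680 and 490 bp, with summits 30, 83, 7 and 26 bp inside the first exon. A weaker intronic region about 1.4 kb further in was called in every list except newborn fibers, at 50.8%, 53.3% and 58.5%. The rest of the 109 kb gene body held 11 regions, of which 9 were called in 1 list, 6 of them by embryonic fibers, and none in more than 2. Away from start sites, 64.4% of the regions of the series were called in 1 list and 31.7% by embryonic fibers alone. Osgepl1 and Slc2a12 had the ranks most like those of Crybg3, at distances of 0.0386 and 0.0531.

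Around Crybg3 the highest ranked peaks belonged to its neighbours. Arl6, a small GTPase of the ciliary BBSome, had a start-site peak at 7.05%, 2.96%, 5.61% and 2.85% of the 4 lists. Riox2, whose end overlaps the end of Crybg3 on the other strand, had one at 6.12%, 4.26%, 15.1% and 2.85%. In all 4 lists both therefore stood nearer the top than the Crybg3 start, apart from Riox2 in newborn epithelium. A region 17.1 kb beyond the end of Crybg3, within Riox2, was called in every list except newborn fibers, at 27.7%, 12.9% and 33.9%.

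Crybg1 (chr10:43950307-44148828, minus strand) is the longest of the 5 genes at 199 kb and has 3 curated start sites. The most upstream start carried a peak in all 4 lists, at 18.3% in embryonic epithelium, 24.3% in embryonic fibers, 20.5% in newborn epithelium and 18.2% in newborn fibers. The widths were 710, 665, 425 and 340 bp, and the summits lay at positions -115, -137, -79 and -92 relative to the start. The start at 44022275 had no peak within 2 kb in any list.

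The most downstream start of Crybg1, at 44004846, had a peak within 2 kb in every list, but no summit lay over the start itself. In each list the best of these peaks had its summit in a coding exon downstream of the start, 1168 bp in embryonic epithelium (33.9%), 1169 bp in embryonic fibers (22.1%), 508 bp in newborn epithelium (39.5%) and 478 bp in newborn fibers (18.2%). Newborn epithelium had another summit in the exon at 881 bp (58.5%). Weaker peaks lay in the intron upstream of the start, with summits at positions -998 in embryonic epithelium (61.2%), -1720 in embryonic fibers (34.2%) and -1012 in newborn epithelium (66.3%). Whether any of these peaks marks a promoter could not be told from their position. An intronic region 77.5 kb into the gene gave embryonic fibers the best peak of the gene body, at 11.4%. It stood at 20.2% in embryonic epithelium and 39.5% in newborn epithelium and was not called in newborn fibers.

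The highest ranked region of the Crybg1 locus that lay away from any start site was found beyond the end of the gene. It covers chr10:43942614-43945874, in the neighbouring gene Rtn4ip1, with its summit 6.41 kb past the last base of Crybg1 and 42.1 kb from the start of Rtn4ip1. embryonic fibers called it as 1 peak of 3261 bp at 2.47% of their list, the best rank of any peak around Crybg1. The best peak there stood at 14.2% in embryonic epithelium (845 bp wide), 27.9% in newborn epithelium (519 bp) and 11.4% in newborn fibers (969 bp). At both stages the fiber list thus had the wider peak and placed it nearer the top than the epithelial list. It is the only one of the 39 regions of the flanks that was called in all 4 lists. embryonic fibers called 32 peaks over the Crybg1 locus, against 11 in embryonic epithelium, 8 in newborn epithelium and 14 in newborn fibers. With a q value below 0.001 these lists, in the same order, had 27, 10, 7 and 5 peaks over the locus. Of its 37 merged regions, 17 (45.9%) were called by embryonic fibers alone, beside 29.3% of all regions of the series, and the embryonic fiber list is the longest of the 4.

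Crybg2 (chr4:134068452-134092504, plus strand) differed from the other 4 genes in that its peaks lay in the gene body and not at the start. A region 13.4 to 13.8 kb into the gene was called in all 4 lists, at 17.3% in embryonic epithelium, 31.0% in embryonic fibers, 27.9% in newborn epithelium and 48.9% in newborn fibers. Its summits lay in an intron in both epithelial lists and in the coding exon next to it in both fiber lists. An intronic region 19.2 kb into the gene was also called in all 4 lists, at 15.2%, 19%, 36.4% and 15.7%, with widths of 693, 909, 138 and 150 bp. These were the only gene body regions, of 38 over the 5 genes, that every list called. Lrrc4c and Utrn had the ranks most like those of Crybg2, at distances of 0.0350 and 0.0657. RefSeq also holds predicted transcripts of Crybg2 that begin upstream, at 134060731, 134060739 and 134065874. Within 2 kb of the start at 134065874, both fiber lists had a peak, at 53.3% in embryonic fibers and 26.4% in newborn fibers, and neither epithelial list had one.

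The gene-dense flanks of Crybg2 held most of the peaks of its locus, 12 of 14 in each E14.5 list. The highest ranked in every list lay at the start of Sh3bgrl3, at 4.95%, 6.34%, 5.12% and 6.31%. A peak at the start of Ubxn11 stood at 9.74%, 7.16%, 17.2% and 34.7%. Lin28a, which encodes an RNA-binding protein that blocks the maturation of let-7, had peaks around its start in both E14.5 lists, the best at 12.5% in epithelium and 9.05% in fibers. At P0.5 the Lin28a start had 1 peak in fibers, at 34.7%, and none in epithelium within the window.

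Crym (chr7:120186380-120201989, minus strand) had the sparsest locus, with 2, 2, 2 and 3 peaks over the gene and its flanks. Over its own start site the embryonic epithelium list had a peak of 213 bp at 55.5% and the newborn epithelium list one of 225 bp at 75.7%. The newborn fiber list had a peak of 153 bp at 34.7% that did not reach the start, with its near edge 0.09 kb inside the gene. embryonic fibers had no peak over the Crym start and none in the gene body. A second region, called in all 4 lists, lay about 2 kb upstream and stood higher, at 27.7%, 20.7%, 33.9% and 21.4%. Its summit lay 16 to 22 bp from the start of Abca14, a transporter gene on the opposite strand, so it is shared by both promoters as defined here and gives both genes the same best rank in all 4 lists. Leaving the Abca14 peak aside, every Crym peak ranked below the best own-start peaks of Cryl1, Crybg3 and Crybg1 in the same list.

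**Figure D2:**
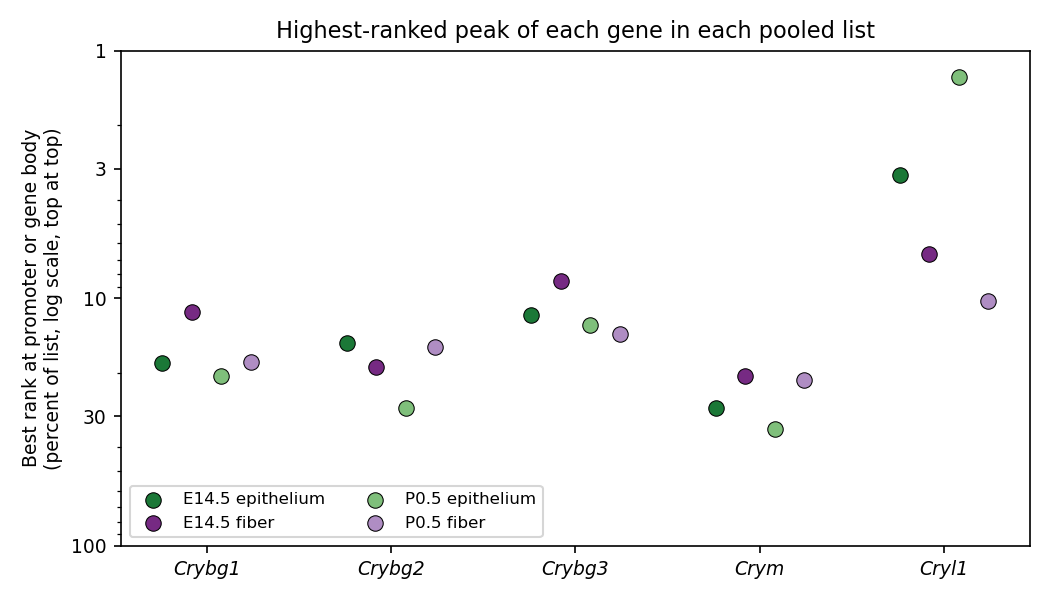
Rank of the best peak within 2 kb of a start site or in the gene body, in percent of its own list on a log scale with the top of the list at the top, for each gene and list. Cryl1 lies nearest the top in all 4 lists, with both epithelial points (3.17% and 1.27%) above the fiber points (6.65% and 10.3%), and the points of Crym come from the peak at the start of Abca14.

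Taking the best peak at a promoter or in the gene body, the order in embryonic epithelium was Cryl1, Crybg3 (11.7%), Crybg2 (15.2%), Crybg1 (18.3%) and Crym (27.7%). In embryonic fibers Crybg1 (11.4%) stood before Crybg2 (19%), in newborn epithelium the values were 20.5% and 27.9%, and in newborn fibers 18.2% and 15.7%. Cryl1 came first, Crybg3 second and Crym last in every list. With 1 list a group, no pair of neighbours in this order can be said to differ beyond a spread between replicates. The medians over the 5 genes were 15.2%, 11.4%, 20.5% and 15.7%, and those over all protein-coding genes with a peak were 7.91%, 6.38%, 13.3% and 11.4%. Afap1l1 and Cldn23 had the ranks most like those of Crybg1, at distances of 0.0231 and 0.0313.

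Peaks covered a small part of each gene. The share of the gene body under peaks was 1.2% in embryonic epithelium, 2.53% in embryonic fibers, 0.752% in newborn epithelium and 0.488% in newborn fibers for Crybg1. For Crybg3 it was 1.32%, 2.14%, 0.839% and 0.519%, and for Cryl1 1.5%, 2.1%, 0.629% and 0.305%. These 3 genes followed 1 order, with embryonic fibers highest, embryonic epithelium next, then newborn epithelium, and newborn fibers lowest. Between the embryonic tissues the order turned for Crybg3 and Cryl1 with equal numbers of peaks in every list, to 1.0% in epithelium against 0.773% in fibers for Crybg3 and 1.42% against 1.07% for Cryl1. In Crybg3, embryonic fibers then also fell below newborn epithelium (0.839%). The order also turned for Cryl1 with a q value below 0.001, at 1.42% against 1.27%. Crybg2, the second shortest of the 5 genes, had the highest share in every list, 5.35%, 6.11%, 3.50% and 1.45%. Crym had 1.24%, 0%, 0.455% and 0.980%, which stands for 1 peak in each list that had any. The medians over the 5 genes, 1.32%, 2.14%, 0.752% and 0.519%, lay below those over 19556 protein-coding genes of at least 1 kb, 2.55%, 4.06%, 1.39% and 1.29%.

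The structural crystallin genes are the nearest comparison by name, and their bodies were covered to another degree. The median over 16 of them was 15.1% in embryonic epithelium, 100% in embryonic fibers, 4.34% in newborn epithelium and 20.2% in newborn fibers. At least 50% of the gene body lay under peaks for 2, 14, 0 and 2 of the 16 in the 4 lists and for 0 of the 5 relatives in any list. Over all protein-coding genes of at least 1 kb this share was 3.77% in embryonic fibers and 1.92%, 0.353% and 0.542% in the other lists, so that 0 of 5 is near the background. The structural genes are also much shorter, and a peak of a given width covers more of a short gene.

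**Figure D3:**
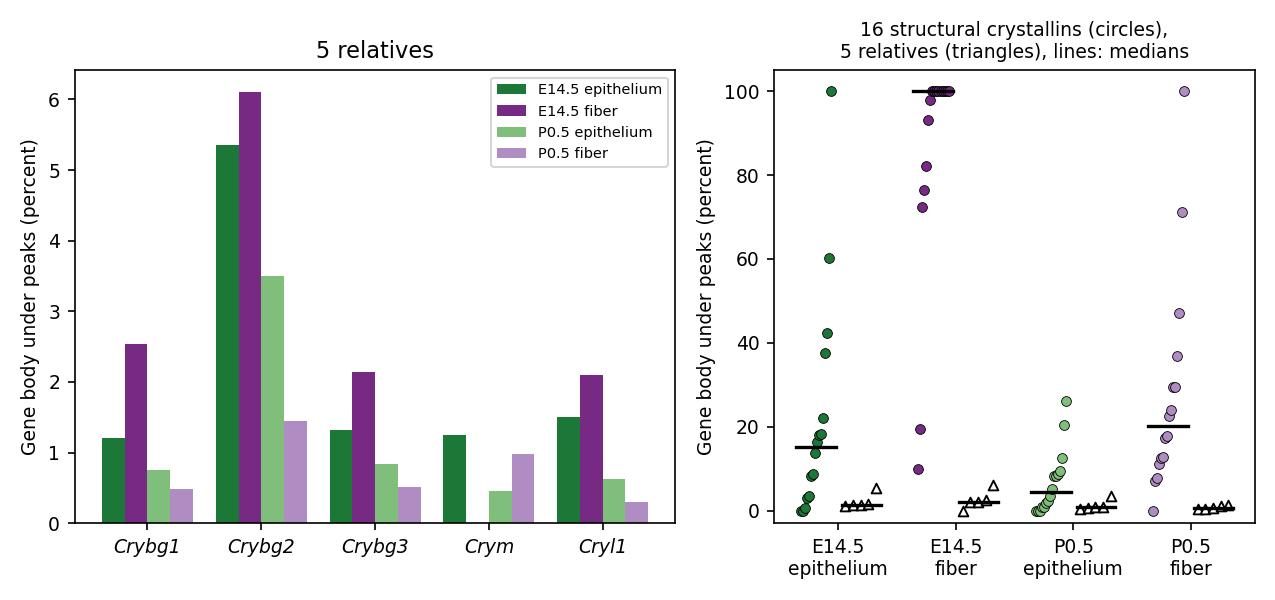
Share of the gene body under peaks in percent. Left, 1 bar per list for each of the 5 genes. Right, the 16 structural crystallin genes (circles) and the same 5 genes (triangles) in each list, with lines at the medians, which for the structural genes stand at 15.1%, 100%, 4.34% and 20.2% and for the relatives at 2.14% or less.

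A gene was counted as differing between lists where coverage was at least 2-fold higher and at least 1 percentage point higher. Between tissues at E14.5, Crybg1 was 2.11-fold higher in fibers, as were 18.9% of genes by the same rule, and Crym was higher in epithelium, 1.24% against 0%, as were 1.63%. Neither passed the rule with equal numbers of peaks in every list. At P0.5, Crybg2 was higher in epithelium, 3.50% against 1.45%, as were 8.49% of genes, and none of the 5 was higher in fibers, as were 10.3%. With predicted transcripts included, the longer Crybg2 gene body had 2.65% in epithelium against 1.89% in fibers, which no longer passed the rule. The structural crystallins gave 12 of 16 higher in fibers at E14.5 and 11 of 16 at P0.5, and 0 higher in epithelium at either stage. Between stages in fibers, Crybg1, Crybg2, Crybg3 and Cryl1 were higher at E14.5 than at P0.5, as were 47.9% of all genes and 13 of 16 structural crystallins, and none of the 5 was higher at P0.5, as were 1.84%. With equal numbers of peaks in every list Crybg1 and Crybg2 passed the rule, 2 of the 4. Between stages in epithelium none of the 5 passed in either direction, against 25.6% of genes higher at E14.5 and 0.808% higher at P0.5. The comparisons share lists, and the longer E14.5 lists cover more of the genome.

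The peaks of the 5 loci merged into 98 regions. Of these, 14 (14.3%, 95% Wilson interval 8.70% to 22.6%) were called in all 4 lists and 47 in 1 list. Over the whole series 10.9% of 185271 merged regions were called in all 4 and 59.5% in 1 list, against 48.0% here. The 14 shared regions were mostly start sites, 5 of the 9 regions within 2 kb of the genes' own starts and 6 of the 12 at the starts of neighbours, where the share over the series was 42.3% of 30419 regions. The 5 include the region upstream of Crym that lies at the start of Abca14. In the gene bodies 2 of 38 regions were shared by all lists, both in Crybg2, and in the flanks 1 of 39, beyond Crybg1. Away from start sites 4.69% of the regions of the series were shared by all lists. Of the 47 regions of 1 list, 29 were called by embryonic fibers, 8 by newborn fibers, 5 by embryonic epithelium and 5 by newborn epithelium. These were 29.6%, 8.16%, 5.10% and 5.10% of the 98 regions, beside 29.3%, 12.6%, 12.9% and 4.63% of the regions of the series. Intervals cover counting error and treat regions as independent.

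**Figure D4:**
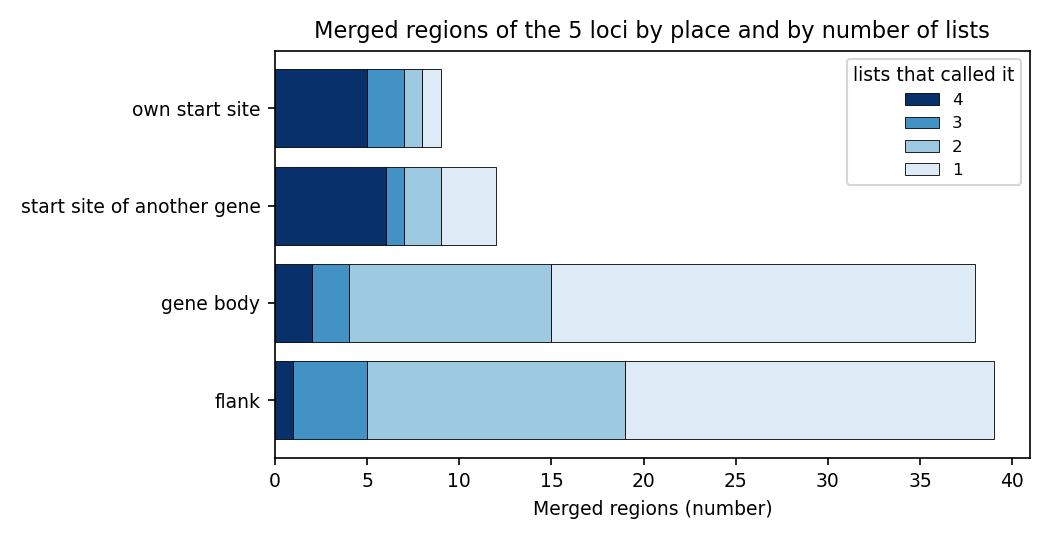
Number of merged regions of the 5 loci by place (vertical axis) and by how many of the 4 lists called them (colour, dark for all 4). Regions called in all 4 lists make up 5 of 9 within 2 kb of the genes' own start sites, 1 of which lies at the start of Abca14, and 6 of 12 at the starts of other genes, but 2 of 38 in gene bodies and 1 of 39 in the flanks.

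The DNA of the regions that carried the peaks away from start sites is shown for 5 of them, chosen because they were called in all 4 lists or were the best shared region of their gene body. Each is 200 bp of the plus strand of GRCm38.p6, centred on the summit of the peak with the lowest q value. Capitals mark matches to 4 short motifs, searched on both strands, that stand for factors studied in the lens: GGAATG for Tead, TGCTGA for Maf, ACAAAG for Sox and TGANTCA for AP-1. They are the region beyond Crybg1 (chr10:43943802-43944001), the Crybg1 intron (chr10:44071211-44071410), the Crybg2 regions 13.8 kb (chr4:134082151-134082350) and 19.2 kb (chr4:134087542-134087741) into the gene, and the Cryl1 coding exon (chr14:57362845-57363044).
Beyond Crybg1: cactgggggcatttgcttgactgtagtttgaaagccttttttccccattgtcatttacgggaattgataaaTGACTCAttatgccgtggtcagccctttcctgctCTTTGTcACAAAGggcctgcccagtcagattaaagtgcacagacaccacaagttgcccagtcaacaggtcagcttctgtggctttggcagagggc
Crybg1 intron: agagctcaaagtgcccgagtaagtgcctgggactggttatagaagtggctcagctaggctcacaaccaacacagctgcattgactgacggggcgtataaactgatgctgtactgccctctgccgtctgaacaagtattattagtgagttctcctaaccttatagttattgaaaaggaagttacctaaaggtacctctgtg
Crybg2 first region: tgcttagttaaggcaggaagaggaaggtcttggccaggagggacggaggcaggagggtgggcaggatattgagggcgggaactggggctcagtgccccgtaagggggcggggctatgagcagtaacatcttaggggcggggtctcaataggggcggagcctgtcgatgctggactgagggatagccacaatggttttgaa
Crybg2 second region: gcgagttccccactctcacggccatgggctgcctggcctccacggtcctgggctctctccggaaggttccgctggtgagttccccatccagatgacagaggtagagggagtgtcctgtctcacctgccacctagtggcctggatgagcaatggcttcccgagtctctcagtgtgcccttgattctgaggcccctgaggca
Cryl1 exon: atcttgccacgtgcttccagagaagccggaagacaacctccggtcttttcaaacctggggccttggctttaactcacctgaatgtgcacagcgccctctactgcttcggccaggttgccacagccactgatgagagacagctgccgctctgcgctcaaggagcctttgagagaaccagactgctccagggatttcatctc
The sequence beyond Crybg1 holds 1 AP-1 match, counted on both strands because the pattern TGANTCA is its own reverse complement, and 2 Sox matches, 1 on each strand and 1 base apart. The other 4 sequences hold no match to these letters in this window.

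Over the 98 regions, Tead letters were found in 18 (18.4%, Wilson interval 11.9% to 27.2%), Maf in 22 (22.4%, 15.3% to 31.7%), Sox in 13 (13.3%, 7.92% to 21.4%) and AP-1 in 9 (9.18%, 4.91% to 16.5%). The same search over all 185271 regions of the series gave 13.7%, 23.1%, 15.9% and 6.61%, and each of these shares lay inside the interval of the 98 regions. In a window of 100 bp, Tead letters were found in 15 regions (15.3%, 9.5% to 23.7%) against 7.79% over the series, which lay outside the interval, while the shares of the other 3 motifs over the series again lay inside theirs. A match of letters is a description of the sequence and not a bound site. At the edge of the windows, the outermost 10 kb inside the 50 kb border held 11 peaks over all loci and lists, at 4.81% to 80.5% of their lists, and the first 10 kb outside held 6, at 9.23% to 69.2%.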

How the data were processed

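By the methods and the submitters' processing notes, the authors trimmed the paired-end reads (Trim Galore 0.4.1), mapped them to mm10 (Bowtie2 2.3.3.1) and filtered them (SAMtools 1.2, Picard 2.1.1). They then ran MACS2 2.1 with a q value cutoff of 0.05. The paper describes calls for each sample that were merged afterwards. The lists used here are labelled as pooled by group. No control library is named, so the background is that of the same reads. The authors' fold enrichment, as deposited, is a ratio, the pileup under the summit over the background that MACS2 estimated. Within a list, peaks of the 5 loci with the same fold enrichment also had the same q value. The −log10 p and −log10 q values and the peak score were also deposited by the authors as MACS2 gave them. The score was not used, and the −log10 p values served to pick equal numbers of peaks. Pooled columns carry no replicates. The lists were mapped to their groups by stage and tissue, with 0 columns unassigned and 0 peaks outside the chromosomes of GRCm38.

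Peaks were ranked by fold enrichment within a list, and tied peaks shared the best rank. Genes were the 26180 with curated RefSeq transcripts (45756). A promoter was within 2 kb of a start site, any overlap of at least 1 bp counted, and lists were merged at 10 bp with bedtools 2.31.1. Python 3.11.15, pandas 2.3.3, numpy 2.4.6, scipy 1.17.1, pysam 0.24.0 and matplotlib 3.10.9 were used. The steps were tested on simulated peaks. The ENCODE blacklist was not used here. Of the 5 genes, 4 matched the RefSeq promoter table, and the start of Crym was not matched. The genes that could be named were the 5 genes, the protein-coding genes in their windows, the 2 genes nearest to each in log10 rank over the 4 lists, the structural and enzyme crystallins and the marker lists. The comparison lists held 16 structural crystallins and 7 enzymes that serve as crystallins in other animals or are related to them. The members and lists were chosen with earlier results of these data known, and the count of genes nearer the top in 1 tissue at both stages was chosen after the ranks were seen. Alternatives were a q value below 0.001, the 58592 strongest peaks of each list, other windows, promoter widths, merge distances, transcripts, gene parts and motif windows. Because the 2 libraries of a group were pooled, no test was run.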

Additional observations from a re-analysis of the deposited data

How the results depend on the processing

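The lists pool both libraries, so no library could be left out. No paired analysis was possible because each list pools the 2 libraries of its group (E14.5, embryonic, and P0.5, newborn) and carries no replicate numbers. Ranking by p value gave the same ranks as fold enrichment. It is no separate check, because equal fold enrichments within a list came with equal q values. The count of members with a peak near a start site did not move past 1.5 times under any alternative tried, though predicted transcripts raised it to 5 in both fiber lists and a promoter of 1 kb lowered it to 3 in embryonic fibers. Of 116 summary values recomputed under an alternative, 42 moved and 74 did not, and of 160 values of single genes 73 moved and 87 did not. The counts of values that did not move include the rankings by p value, which do not test the ranks separately. In the order embryonic epithelium, embryonic fibers, newborn epithelium and newborn fibers, the peaks over the 5 loci numbered 31, 45, 20 and 18 with 10 kb on either side and 23, 35, 17 and 11 in the gene bodies. embryonic fibers had 39 with equal numbers of peaks, and newborn fibers 17 with a q value below 0.001. The median coverage was 1.24%, 1.80%, 0.696% and 0.421% with a q value below 0.001 and 1.08%, 1.88%, 0.399% and 0.171% without the first 2 kb of the gene, and with equal numbers it was 1.04% in embryonic epithelium and 1.07% in embryonic fibers. The median best rank was 17.3%, 14.1%, 23.7% and 32.2% with a q value below 0.001, and with equal numbers 26% in embryonic epithelium, 24.0% in embryonic fibers and 16.9% in newborn fibers. Merged regions numbered 59 with 10 kb, 9 of them in all lists, and 46 in the gene bodies, 6 of them in all lists. With equal numbers, 0 of the 5 genes were covered 2-fold more in embryonic fibers than in embryonic epithelium and 0 the other way, and 2 were covered more in embryonic than in newborn fibers. Without the first 2 kb, 0 were covered more in embryonic epithelium than in embryonic fibers, so the Crybg1 and Crym calls between the embryonic tissues rest on these choices. The Crybg2 call at P0.5 was lost with predicted transcripts, at 2.65% against 1.89%. With no minimum difference, 1 gene was higher in newborn fibers and 2 in newborn epithelium against the other tissue, 2 were higher in embryonic than in newborn epithelium and 1 in newborn than in embryonic fibers. In 100 bp, Tead, Maf, Sox and AP-1 letters were found in 15, 14, 8 and 5 of the 98 regions, against 7.79%, 13.9%, 8.43% and 3.53% of the regions of the series. The cause of these shifts was not tested, except that a smaller window or a shorter list holds fewer peaks by construction.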

Other observations

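Enzymes that serve as crystallins in other animals, and their close relatives, form a second group outside the structural set. All 7 of them (Cryz, Cryzl1, Cryzl2, Aldh1a1, Asl, Eno1 and Ldhb) had a peak within 2 kb of a start site in both embryonic lists and in newborn epithelium, and 5 had one in newborn fibers, where Aldh1a1 and Ldhb had none, beside 70.3%, 71.2%, 67.0% and 64.6% of all protein-coding genes in the 4 lists. Their median coverage was 5.15%, 5.73%, 2.19% and 1.62% in embryonic epithelium, embryonic fibers, newborn epithelium and newborn fibers, beside 2.55%, 4.06%, 1.39% and 1.29% over all protein-coding genes of at least 1 kb. Eno1, which encodes the glycolytic enzyme alpha-enolase, had its best peak at 0.168%, 0.146%, 1.09% and 0.446% of the 4 lists, nearer the top in each than the best peak of Cryl1. No value has a spread between replicates, and no difference was tested.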
